A study of Mus musculus with 14 samples.

Results

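The circadian clock genes described here are Arntl, Clock, Per1, Per2, Per3, Cry1, Nr1d1, Nr1d2, Dbp and Tef, each taken as the row that carries its symbol in the deposited expression table. They are 10 of 22850 gene rows, no symbol occurred more than once, and all 10 stood above the lowest value of the table in enough livers to be tested. The 14 liver samples, each called a liver here, came from C57BL/6N mice, an inbred wild-type strain, that were put on their diets at 7 weeks of age. The HFWD+sugar group held 5 samples from mice fed a Western diet rich in fat (HFWD), in which fat supplied 40% of the energy, whose water contained sugar at 42 g/L (55% fructose, 45% sucrose). The HFWD group held 5 samples from mice that ate the same diet without the sugar, and the chow group 4 samples from mice on standard chow, in which fat supplied about 12% of the energy. The labels used here state neither the hour at which the livers were taken, nor the sex of the mice, nor the weeks spent on the diet. They give each library its own number without stating whether the libraries are from different animals, so the p-values measure the spread between these samples, which may be technical.

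In mouse liver the clock is a loop of transcription factors that turns round about once a day. ARNTL (also called BMAL1) and CLOCK bind E-box sequences together and switch on the Per, Cry, Nr1d and Dbp genes. PER and CRY proteins then inhibit ARNTL and CLOCK, NR1D1 and NR1D2 (REV-ERB alpha and beta) repress Arntl through response elements that they share with the ROR receptors (RREs), and DBP and TEF drive further genes through D-boxes. As a result the Arntl transcript is known to be high when the Nr1d1 and Dbp transcripts are low and the other way round, and a single sampling of a liver shows one moment of that cycle.

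The start regions of 4 members are printed with letter strings of these elements, or looser forms of them, marked. Each line gives the 250 bases before a start site, 5′ to 3′ on the strand of the gene, from a RefSeq table of build GRCm38.p6, and its coordinates come from an exact match found once in the mm9 genome, the build of the deposited table. Capitals mark the E-box CACGTG, the D-box TTATGNAA and the string TNGGTCA, searched on both strands, where N is any base. TNGGTCA is looser than the RRE, since it admits any second base, so a match to it need not be an RRE. Binding was not tested.
Per3 (chr4:150418775-150419024, minus strand): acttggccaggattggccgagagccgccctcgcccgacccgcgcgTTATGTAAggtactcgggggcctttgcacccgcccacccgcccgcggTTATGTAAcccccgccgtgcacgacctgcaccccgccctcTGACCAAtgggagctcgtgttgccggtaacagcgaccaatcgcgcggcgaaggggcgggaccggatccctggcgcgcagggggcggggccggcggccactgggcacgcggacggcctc
Per1 (chr11:68912201-68912450, plus strand): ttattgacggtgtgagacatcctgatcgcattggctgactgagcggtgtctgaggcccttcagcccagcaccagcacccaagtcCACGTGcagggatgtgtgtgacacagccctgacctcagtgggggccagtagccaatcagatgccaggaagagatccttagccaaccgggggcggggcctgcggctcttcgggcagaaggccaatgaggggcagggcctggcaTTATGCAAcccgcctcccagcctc
Cry1 (chr10:84647800-84648049, minus strand): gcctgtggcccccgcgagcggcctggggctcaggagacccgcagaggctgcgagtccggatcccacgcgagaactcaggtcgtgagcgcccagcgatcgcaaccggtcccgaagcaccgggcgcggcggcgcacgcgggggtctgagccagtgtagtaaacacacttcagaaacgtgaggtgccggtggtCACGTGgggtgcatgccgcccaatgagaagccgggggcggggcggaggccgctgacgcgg
Arntl (chr7:120350729-120350978, plus strand): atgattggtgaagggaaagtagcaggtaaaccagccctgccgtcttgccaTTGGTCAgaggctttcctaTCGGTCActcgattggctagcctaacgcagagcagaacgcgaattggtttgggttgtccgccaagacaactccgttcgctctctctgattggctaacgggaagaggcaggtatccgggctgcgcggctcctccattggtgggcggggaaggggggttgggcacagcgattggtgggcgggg
The Per3 window held a pair of D-boxes that begin at positions -205 and -158, counted with -1 as the base before the start site. It also held a TNGGTCA match at -118, printed as TGACCAA. The Per1 window, which lies inside the row's span beside an internal start site, held an E-box at -166 and a D-box at -24. The Cry1 window held an E-box at -60, and the Arntl window held TNGGTCA matches at -200 (TTGGTCA) and -181 (TCGGTCA). Of 32851 such windows in the table, 6.02% held the E-box, 3.07% the D-box and 9.19% TNGGTCA. The table had start sites for 9 of the 10 members. Both Tef windows held an E-box, whereas the Dbp, Nr1d1, Nr1d2 and Clock windows held none of the 3 letter strings, which says nothing of elements outside these windows. No match overlapped another in the windows printed.

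Expression was deposited as a normalized signal on a linear scale, in units whose scaling no source used here gives. The lowest value was exactly 1, and 36.7% to 47.1% of the rows of a library took it. The size of the smallest steps gave a depth of about 3.77 M reads for chow 4, about 5.84 M for HFWD 1 and at most 9.34 M for any library, so that 1 read was worth 2.47 to 6.85 units. Differences were tested with limma on log2(value + 1) over 14770 rows, with Benjamini-Hochberg adjustment at 0.05, and "rose" and "fell" refer to that threshold. HFWD+sugar against chow called 1336 rows, 9.05% of those tested, of which 837 were higher and 499 lower. After centring each library on its median the same comparison called 420 higher and 1151 lower, so the split between directions depends on the scaling. HFWD against chow called 499 rows (3.38%) and HFWD+sugar against HFWD called 0 (0%), with 1273 at an unadjusted p under 0.05. The hepatocyte marker rows fixed for checking the tissue were all above the floor. Their summed signal was 7159 to 10830 units in HFWD+sugar livers, 6648 to 9313 in HFWD livers and 8098 to 8927 in chow livers. These sums were small beside library totals of 21.42 M units (HFWD+sugar 4) to 25.81 M (chow 4). The macrophage and Kupffer cell marker rows summed to 1668 to 2594 units in chow livers. They summed to 1923 to 2183 in HFWD+sugar livers and 2049 to 2356 in HFWD livers. The Ctcfl and Tomm40l rows averaged 132800 and 120600 units, above every hepatocyte sum. Whether the marker rows carry the signal of their own genes was not tested. The cholangiocyte marker Krt19 and the T cell marker Cd3e stood at the floor in all 14 livers. Of their lists, 4 of 5 cholangiocyte markers and 2 of 5 T and B cell markers exceeded the floor in 4 or more libraries. In whole liver, fewer cells of a type and less RNA per cell cannot be told apart.

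Nr1d1 rose and Tef fell in HFWD+sugar against chow, and the other 8 of the 10 members did not pass the test, against the 9.05% of all rows that did. Unadjusted, 4 of 10 had p under 0.05, beside 3656 of all 14770 rows. In HFWD against chow 0 of 10 were called, beside 3.38% of all rows, and in HFWD+sugar against HFWD 0 of 10, beside 0%. The median log2 difference of the members was 0.22 in HFWD+sugar against chow, where the median of all rows was 0.119. It was 0.07 in HFWD against chow, where that of all rows was 0.042, and 0.12 in HFWD+sugar against HFWD, where that of all rows was 0.046.

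**Figure D1:**
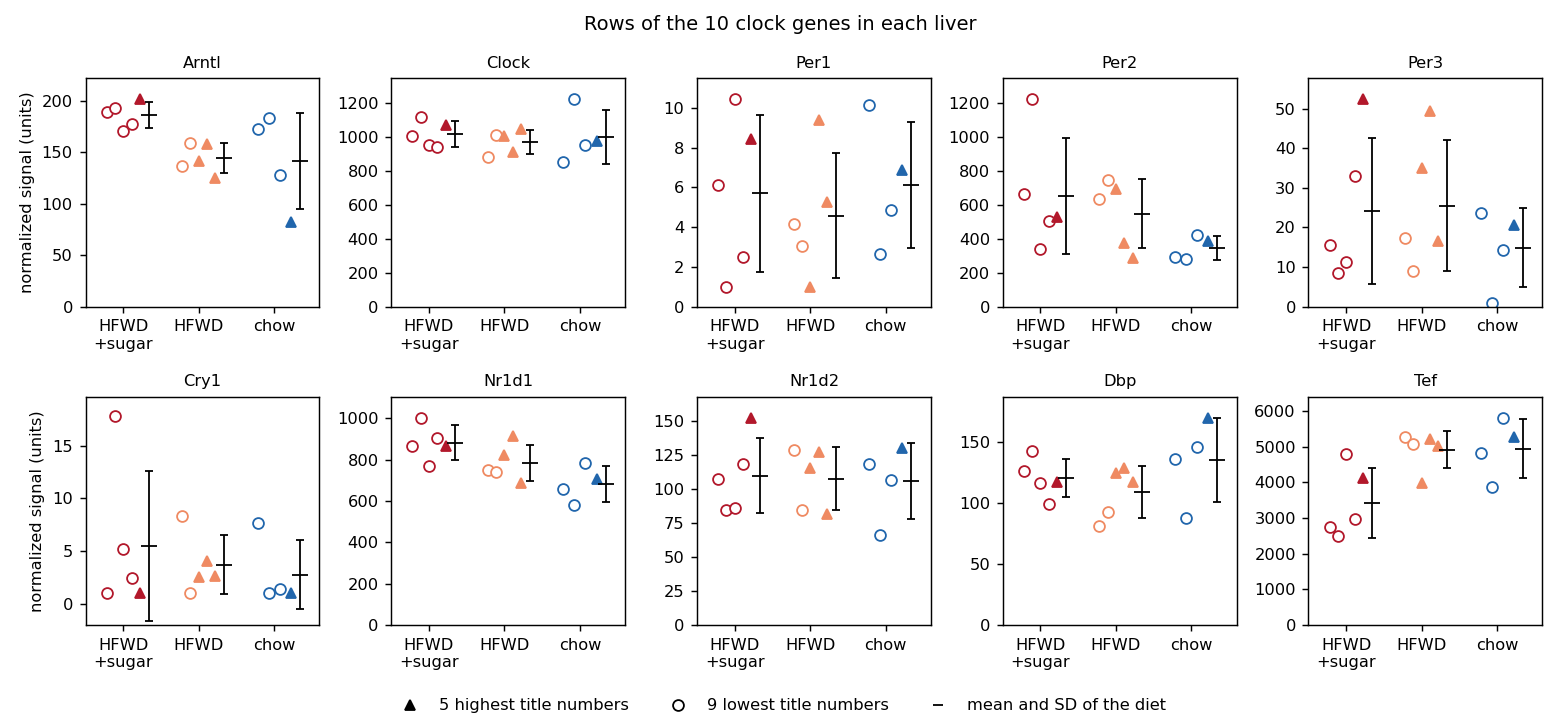
Normalized signal (units, linear axes) of the rows of the 10 clock genes, one point per liver, with HFWD+sugar left of HFWD and HFWD left of chow; the dash and bar beside each diet are the mean and SD. Triangles are the 5 livers with the highest numbers in their sample titles and circles the other 9. Arntl in HFWD+sugar livers sits above every HFWD liver, and Tef is lowest in HFWD+sugar livers 1, 2 and 4.

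The activating arm was read from Arntl and Clock. Arntl (chromosome 7, 120350979 to 120457636, plus strand, mm9) gave 189.6, 193, 171, 178 and 202 units in the 5 HFWD+sugar livers, 137, 159, 142, 158 and 125 in the 5 HFWD livers and 173, 183, 128 and 82.2 in the 4 chow livers. The 5 HFWD+sugar values lay above all 5 HFWD values and overlapped the chow values, where chow 4, the library with the fewest reads, was the lowest of all. Its log2 difference was 0.46 (SE 0.20) in HFWD+sugar against chow and 0.37 (SE 0.19) in HFWD+sugar against HFWD, and limma called neither (adjusted p = 0.1585 and 0.5953). Clock (chromosome 5, 76639992 to 76733817, minus strand), whose protein is the partner of ARNTL, gave 1008, 1119, 956, 940.3 and 1073 units in the 5 HFWD+sugar livers, 885, 1009.6, 1006, 914 and 1048 in the 5 HFWD livers and 851, 1224, 954 and 974 in the 4 chow livers. All 3 diets overlapped, and the log2 difference of HFWD+sugar against chow was 0.04, with a 95% interval of -0.18 to 0.26. The spread of Clock between livers of a diet, a within-diet SD of 0.15 on the log2 scale, was smaller than the median of 0.21 over the 6220 rows with a mean of at least 100 units, and that of Arntl was 0.29.

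The repressing arm was read from Per1, Per2, Per3 and Cry1. Per2 (chromosome 1, 93312561 to 93355907, minus strand), a partner of the CRY proteins and a gene known to respond also to temperature and glucocorticoids, gave 662, 1219.7, 338, 502 and 526 units in the 5 HFWD+sugar livers, 635, 747, 692, 375 and 284 in the 5 HFWD livers and 291, 277, 421 and 384 in the 4 chow livers. HFWD+sugar 2 was the highest, and the lowest livers of both Western diets lay within the chow range. Its log2 difference was 0.81 (SE 0.32) in HFWD+sugar against chow (adjusted p = 0.1233) and 0.60 (SE 0.32) in HFWD against chow (adjusted p = 0.3747), so the differences did not pass; without HFWD+sugar 3 the first was 1.01 (adjusted p = 0.0488). Its within-diet SD of 0.57 on the log2 scale was above that of 95.7% of the 6220 rows.

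Per3 (chromosome 4, 150377761 to 150418774, minus strand), the third Period gene, gave 15.5, 8.46, 11.3, 33 and 52.5 units in the 5 HFWD+sugar livers, 17.2, 9.06, 35.1, 49.6 and 16.6 in the 5 HFWD livers and 23.6, 1, 14.4 and 20.6 in the 4 chow livers. By the size of 1 read, the median liver held about 5 reads of Per3 and the highest, HFWD+sugar 5, about 20.2. Chow 2 stood at the floor, and all diets overlapped. The Per1 row (chromosome 11, 68908719 to 68923462, plus strand) averaged 5.69 ± 3.95 units in HFWD+sugar livers, 4.57 ± 3.13 in HFWD livers and 6.12 ± 3.18 in chow livers (SD, n = 5, 5 and 4), and the Cry1 row (chromosome 10, 84594447 to 84647799, minus strand), the gene of a PER partner, averaged 5.5 ± 7.1 units in HFWD+sugar livers, 3.7 ± 2.79 in HFWD livers and 2.78 ± 3.28 in chow livers (SD, n = 5, 5 and 4). The reads were few, at most about 4 for Per1 and 6.32 for Cry1. Of 14 livers, 12 were above the floor for Per1 and 9 for Cry1. No difference between diets was detectable with so few reads. For Cry1 the 95% interval of the log2 difference of HFWD+sugar against chow ran from -0.84 to 1.90.

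Nr1d1 and Nr1d2 encode the REV-ERB receptors that repress Arntl. Nr1d1 (chromosome 11, 98629246 to 98636647, minus strand) gave 865, 1003, 768, 906 and 868 units in the 5 HFWD+sugar livers, 749, 739, 822, 914 and 688 in the 5 HFWD livers and 657, 579.8, 785 and 707 in the 4 chow livers. The HFWD+sugar livers averaged 882 ± 84.8 units and the chow livers 682 ± 86.1 (SD, n = 5 and 4), and the ranges met only where HFWD+sugar 3 lay below chow 3. Nr1d1 rose 1.30-fold in HFWD+sugar against chow, a log2 difference of 0.37 (SE 0.11, limma adjusted p = 0.0455). The call lay near the threshold: after median centring the log2 difference was 0.16 (adjusted p = 0.4585), and omitting 1 library lost the call for 9 of the 14, namely chow 1 and 2, HFWD 1, 2 and 3, and HFWD+sugar 1, 2, 4 and 5, with adjusted p between 0.02928 and 0.1065. Nr1d1 ends inside Thra on the other strand, with 1075 shared bases of which 263 are exonic, and without a stated strand setting reads there cannot be told apart. HFWD livers lay between the others, with a log2 difference from chow of 0.20 (SE 0.11, adjusted p = 0.4043).

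Nr1d2 (chromosome 14, 19036568 to 19071641, minus strand) gave 107, 84.5, 85.9, 118 and 152 units in the 5 HFWD+sugar livers, 129, 84.5, 115, 127 and 81.5 in the 5 HFWD livers and 118, 66.3, 107 and 130.2 in the 4 chow livers. The diets overlapped throughout, and the log2 difference of HFWD+sugar against chow was 0.07 (SE 0.24, adjusted p = 0.9017). The lowest liver was chow 2 and the highest HFWD+sugar 5.

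Dbp and Tef encode proline- and acid-rich basic leucine zipper factors that bind D-boxes. Dbp (chromosome 7, 52960458 to 52965525, plus strand), a direct target of ARNTL and CLOCK with one of the deepest daily rhythms known in liver, gave 126, 142, 116, 99 and 117 units in the 5 HFWD+sugar livers, 80.9, 92.6, 125, 129 and 117 in the 5 HFWD livers and 136, 87.9, 145 and 169.8 in the 4 chow livers. The highest liver was chow 4 and the lowest HFWD 1, and no diet stood apart (log2 difference of HFWD+sugar against chow -0.13, SE 0.21, adjusted p = 0.7365). Dbp shares 689 bases with Sphk2 on the other strand, 491 of them exonic.

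Tef (chromosome 15, 81632851 to 81657291, plus strand) gave 2744, 2484, 4789, 2964 and 4121 units in the 5 HFWD+sugar livers, 5270.2, 5088, 3996, 5225 and 5031 in the 5 HFWD livers and 4839, 3876, 5818 and 5261 in the 4 chow livers. HFWD+sugar 1, 2 and 4 lay below every liver of the other diets, while HFWD+sugar 3 and 5 lay within their range. Tef averaged 3420.2 ± 988 units in HFWD+sugar livers, 4922 ± 527 in HFWD livers and 4948 ± 819.8 in chow livers (SD, n = 5, 5 and 4). It fell in HFWD+sugar against chow, with a log2 difference of -0.56 (SE 0.17, limma adjusted p = 0.04602), that is 1.48-fold lower, and had the same difference of -0.56 (SE 0.16) against HFWD without a call there (adjusted p = 0.5025). Omitting 1 library lost the call against chow for 10 of the 14, namely chow 1, 3 and 4, HFWD 1, 2, 4 and 5, and HFWD+sugar 1, 2 and 4, with adjusted p between 0.009432 and 0.1419. Exact 2-sided permutation tests of single rows, unadjusted, had p under 0.05 in 4 of 30 member comparisons, where 0.007937 is the smallest p possible. These exact tests were of Arntl in HFWD+sugar against HFWD (p = 0.007937) and against chow (p = 0.03968), Nr1d1 in HFWD+sugar against chow (p = 0.02381) and Tef in HFWD+sugar against HFWD (p = 0.02381). The exact p of Tef in HFWD+sugar against chow was 0.06349.

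**Figure D2:**
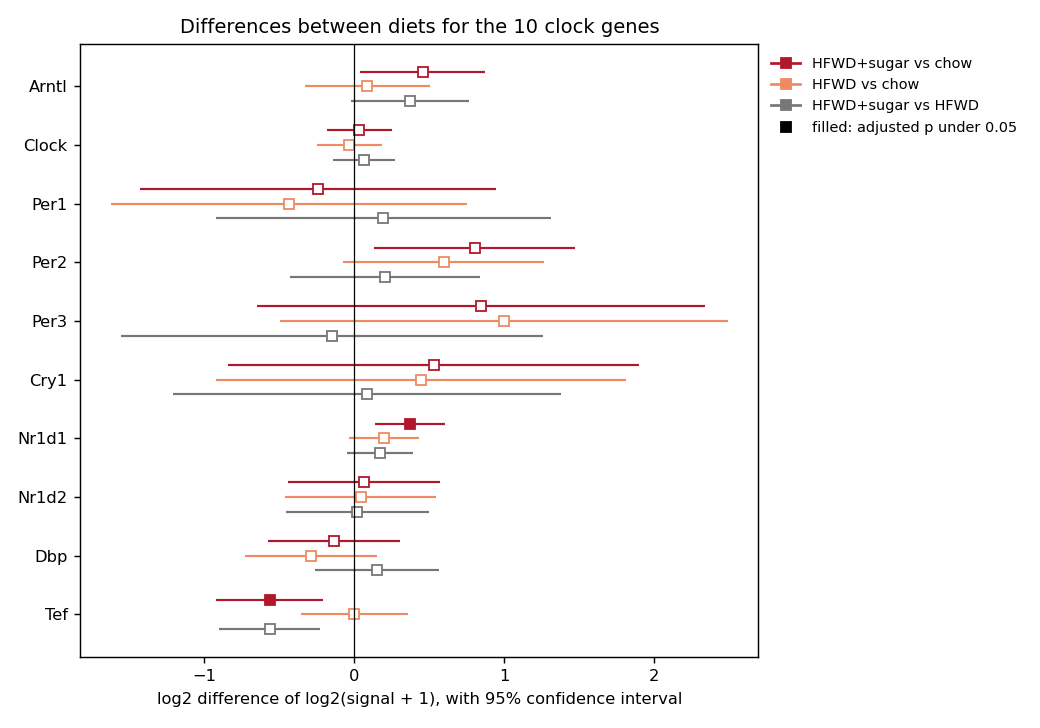
Log2 differences of the 10 clock genes on the log2(signal + 1) scale with 95% confidence intervals, HFWD+sugar against chow, HFWD against chow and HFWD+sugar against HFWD from top to bottom in each gene; filled squares passed an adjusted p of 0.05. The filled squares are Nr1d1 (0.37) and Tef (-0.56) in HFWD+sugar against chow, and the intervals of Per1, Per3 and Cry1 are the widest.

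Because the known loop sets Arntl against Dbp and Nr1d1, the other 9 members were correlated with Arntl over the 14 livers after removing diet means, with livers permuted 100000 times within diets and adjustment over the 9 relations. Pearson's r ran from -0.49 for Dbp to 0.20 for Clock, and 0 of 9 relations passed, adjusted or not. For Dbp r was -0.49 (permutation p = 0.271, adjusted 0.845) and Spearman's rho -0.30 (permutation p = 0.403, adjusted 0.873). Chow 2 and chow 4, the livers farthest from the median of Arntl, were also left out, with the diet means of all 14 livers kept. Pearson's r then changed sign for 7 of the 9 members, so these values rest on those livers. It was then 0.11 for Dbp, 0.37 for Nr1d2, 0.35 for Per3, 0.22 for Nr1d1, 0.23 for Per2, 0.18 for Per1 and -0.28 for Clock. For Tef r was -0.30 (permutation p = 0.295, adjusted 0.845) and rho -0.39 (permutation p = 0.18, adjusted 0.873). Over all 14 livers r was -0.28 for Nr1d2, -0.30 for Per3, -0.17 for Nr1d1, -0.02 for Per2 and -0.10 for Per1. In the 9 livers with the lowest title numbers, r with Arntl was -0.31 for Dbp, -0.49 for Nr1d2 and -0.66 for Tef, and the 5 livers with the highest are too few for a value.

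The rows most like Arntl over the 14 livers, by Pearson's r of deviations from diet means among 6219 other rows with a mean of at least 100 units, were Arih1 (0.94), Chd4 (0.91), Cnga4 (0.88), Cenpt (0.87) and Hsd17b2 (0.87). The most opposed were Ndufb10 (-0.94), Rnf10 (-0.93), Pcyox1 (-0.92), Bet1l (-0.91) and Cox6a1 (-0.91). For Dbp the most alike were Zc3h6 (0.92), Nr4a3 (0.89), Tmem85 (0.89), 2810417H13Rik (0.89) and Pde3b (0.88), and the most opposed Hsp90aa1 (-0.87), Tulp4 (-0.87), Serpina10 (-0.87), Slc39a7 (-0.87) and Greb1 (-0.86). No clock row was among them. These are extremes of many rows over 14 livers that share a library and a depth, and are given as a description.

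Rows of this table can carry values that move with a neighbour on the other strand, so for each member the nearest opposite-strand row was read as well. These rows were chosen with their values known. The signal is not divided by gene length, so a ratio between rows does not compare transcripts. The mean of the nearest opposite-strand row over that of the member was 3.64 for Arntl, 408 for Per1 and 223 for Per3. It was 270 for Cry1, 1.29 for Nr1d1, 103 for Nr1d2 and 47.4 for Dbp, and below the member for Clock, Per2 and Tef. Which gene's reads a member row carries was not tested. Btbd10 (chromosome 7, 120459140 to 120512906, minus strand), which ends 1.504 kb from the end of Arntl, gave 783, 1199.7, 1142, 642 and 179 units in the 5 HFWD+sugar livers, 146, 540.3, 138, 95.1 and 214 in the 5 HFWD livers and 973, 1626, 308 and 95.9 in the 4 chow livers. Values ran from 95.1 units in HFWD 4 to 1626 in chow 2, and the HFWD livers all lay below HFWD+sugar 1 to 4 and below chow 1 and 2. The within-diet SD of 1.30 on the log2 scale was rank 14 of 6220 rows. Deviations of the Btbd10 row and the Arntl row had r = 0.63.

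Sphk2 (chromosome 7, 52964837 to 52973372, minus strand), which encodes a sphingosine kinase and overlaps Dbp, gave 3738, 2317, 2570.0, 3844 and 8050.5 units in the 5 HFWD+sugar livers, 7092, 4456, 9167, 8924 and 6073 in the 5 HFWD livers and 3676, 2237, 6883 and 10866 in the 4 chow livers. Its lowest livers, chow 2 and HFWD+sugar 2 and 3, were those with the highest Btbd10 values, and its highest, chow 4 and HFWD 3 and 4, were those with the lowest. The row beside Nr1d2, Gm7084 (chromosome 14, 19075453 to 19075770, plus strand), gave 7753, 6786, 8527, 7761 and 12119 units in the 5 HFWD+sugar livers, 12052, 9982, 13818, 13308 and 11539 in the 5 HFWD livers and 11945, 7749.8, 15030.0 and 17019 in the 4 chow livers. The row beside Per3, Uts2 (chromosome 4, 150371206 to 150375919, plus strand), which encodes the peptide urotensin 2, gave 3867, 1572, 3919, 3748 and 7207 units in the 5 HFWD+sugar livers, 5153, 3652, 7193, 7354 and 5594 in the 5 HFWD livers and 4705, 1690.3, 6047 and 6965 in the 4 chow livers. Gm7084 and Uts2 were lowest in HFWD+sugar 2 and low in chow 2, where Sphk2 was low too.

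Thra (chromosome 11, 98601952 to 98630320, plus strand), a thyroid hormone receptor gene beside Nr1d1, gave 1076, 1523, 153, 839.8 and 1083 units in the 5 HFWD+sugar livers, 1125, 1157, 1601, 1149.6 and 819 in the 5 HFWD livers and 419, 173, 1502 and 1671 in the 4 chow livers. It was lowest in HFWD+sugar 3, chow 2 and chow 1, and its within-diet SD of 1.15 on the log2 scale was rank 22 of 6220. Deviations of own rows and these neighbours had r = 0.88 for Per3 and Uts2, 0.81 for Nr1d2 and Gm7084, 0.77 for Nr1d1 and Thra, 0.51 for Dbp and Sphk2 and -0.32 for Clock and Tmem165.

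**Figure D3:**
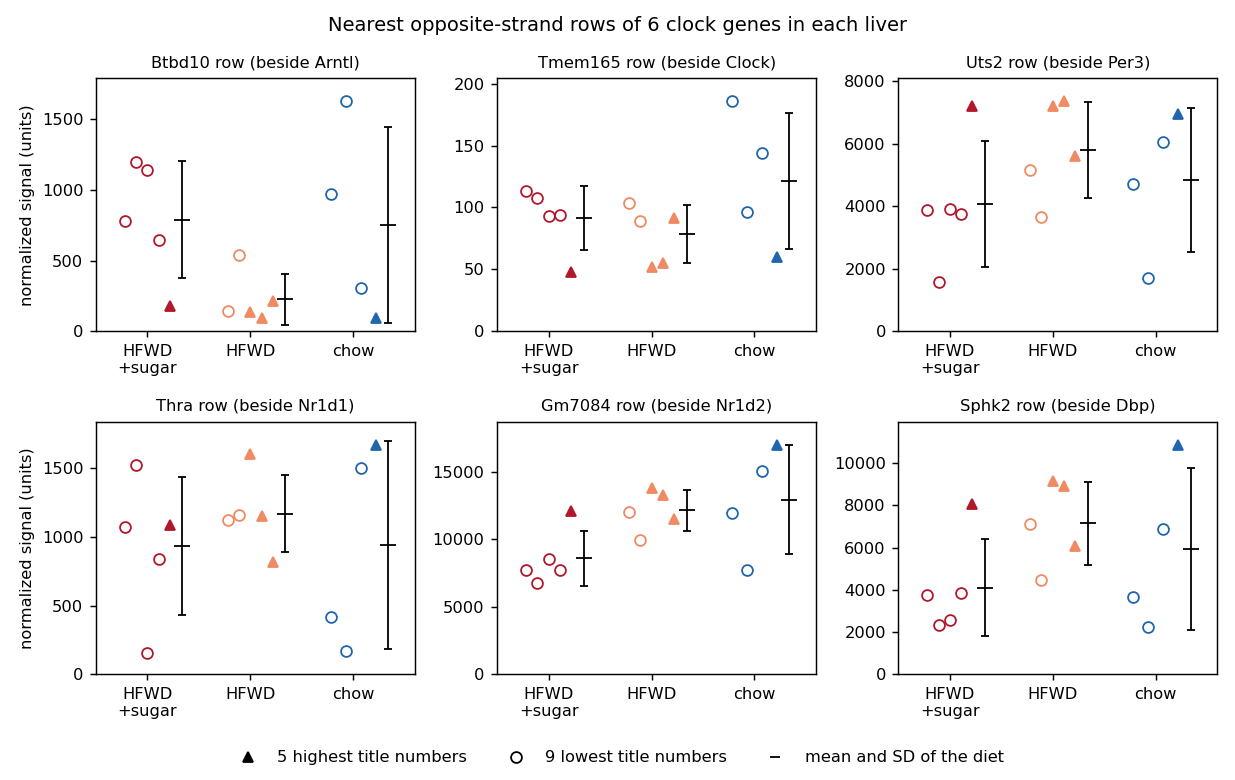
Normalized signal (units, linear axes) of the nearest opposite-strand rows of 6 clock genes, one point per liver, HFWD+sugar left of HFWD and HFWD left of chow, with the mean and SD of each diet. The 5 livers with the highest title numbers (triangles) lie between 95.1 and 214 units in Btbd10 and between 6073 and 10866 in Sphk2.

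With Btbd10 as the common partner, 8 relations among the nearest opposite-strand rows were tested after the pattern had been seen, and 3 passed, all negative. Sphk2 had r = -0.98 (permutation p = 3e-05, adjusted 0.00024) and rho = -0.96 (permutation p = 3e-05, adjusted 0.00024). Gm7084 had r = -0.90 (permutation p = 0.00024, adjusted 0.00096) and rho = -0.87 (permutation p = 0.00037, adjusted 0.00148). Uts2 had r = -0.82 (permutation p = 0.00277, adjusted 0.00739) and rho = -0.81 (permutation p = 0.00081, adjusted 0.00216). Without HFWD+sugar 5 and chow 4, the livers farthest from the median, the 3 values of r were -0.95, -0.83 and -0.76. In the 9 livers with the lowest title numbers they were -0.95, -0.80 and -0.72. Thra had r = -0.61 (permutation p = 0.0747, adjusted 0.12) and did not pass, and Tmem165 had r = 0.66 (permutation p = 0.039, adjusted 0.078), which was 0.26 without those 2 livers. Among 6219 rows, Sphk2 was the most opposed to Btbd10.

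**Figure D4:**
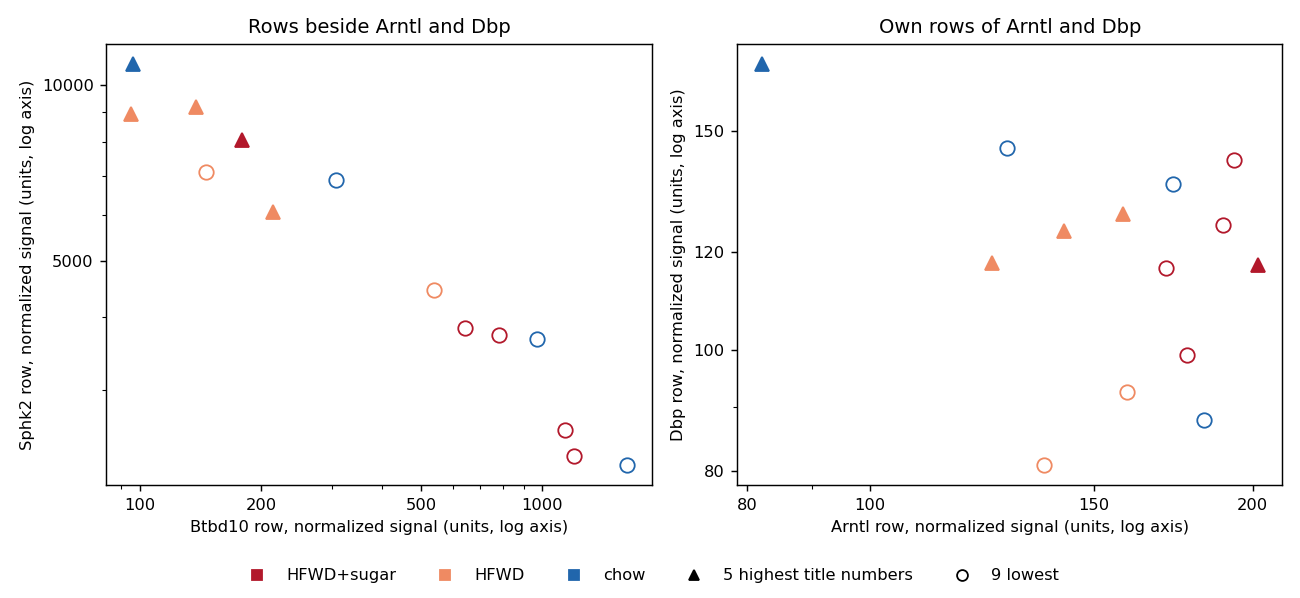
Left, the Sphk2 row (beside Dbp) against the Btbd10 row (beside Arntl); right, the own row of Dbp against that of Arntl; normalized signal (units) on log axes, one point per liver, coloured by diet, filled triangles for the 5 highest title numbers. The left panel falls along one line (r = -0.98 of deviations from diet means) and the right panel does not (r = -0.49, and 0.11 without chow 2 and chow 4).

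Against the diets, 12 of the 13 nearest or highest opposite-strand rows could be tested. In HFWD+sugar against chow 0 of 12 were called, beside 9.05% of all rows. An unadjusted p under 0.05 was held by 2 of 12, beside 3656 of all 14770 rows. In HFWD+sugar against HFWD 0 of 12 were called, beside 0% of all rows, with 3 unadjusted, beside 1273 of all 14770 rows. In HFWD against chow 1 of 12 fell, beside 3.38%. That row was 9330160F10Rik, 34.7 kb from Per1, which averaged 1781 ± 511 units in HFWD livers and 3018 ± 982 in chow livers (SD, n = 5 and 4), a log2 difference of -0.75 (SE 0.20, limma adjusted p = 0.04378). Omitting 1 library lost the call for 10 of the 14 (adjusted p from 0.01415 to 0.1051), and only chow 1, chow 3, HFWD 3 and HFWD 5 could be left out with the call kept; with a term for title number the difference was -0.92 (adjusted p = 0.00298), again 1 of 12, beside 2.83% of all rows. Between HFWD+sugar and HFWD, Btbd10 differed by 1.82 (SE 0.66, adjusted p = 0.5496) and Sphk2 by -0.90 (SE 0.37, adjusted p = 0.5681) on the log2 scale. For Gm7084 the difference of HFWD+sugar against chow was -0.56 (SE 0.19, adjusted p = 0.07975) and, with the title number term, -0.54 (adjusted p = 0.03494). For 9330160F10Rik the same comparison gave -0.55 (SE 0.20, adjusted p = 0.08824) and, with that term, -0.53 (adjusted p = 0.03428), so with the term 2 of 12 fell, beside 10.1% of all rows called. For Gm7084 without chow 2 the difference fitted on diet alone was -0.79 (adjusted p = 0.006653), and without HFWD+sugar 5 it was -0.69 (adjusted p = 0.03552).

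Each sample title holds a number, and the 5 highest belong to HFWD+sugar 5, HFWD 3, 4 and 5, and chow 4. The labels do not say what the number stands for, and this split was chosen with earlier results of these data known. A term for it, fitted with the diets, called 8 rows (0.0542% of those tested, 4 higher and 4 lower), with 1571 at an unadjusted p under 0.05. Of the 10 clock rows 0 were called; 1 had an unadjusted p under 0.05, Per3, with a log2 difference of 1.38 (SE 0.56, adjusted p = 0.4054). Of the 12 opposite-strand rows 0 were called and 6 had an unadjusted p under 0.05. Btbd10 averaged 144 ± 52.3 units in these 5 livers and 818 ± 468 in the other 9 (SD), a log2 difference of -1.94 (SE 0.43, adjusted p = 0.136). It passed without HFWD 1 (-2.43, adjusted p = 0.02797) and without HFWD 5 (-2.13, adjusted p = 0.04135). Sphk2 averaged 8616 ± 1750 units in the 5 and 4090 ± 1809 in the 9, a difference of 1.03 (SE 0.25, adjusted p = 0.1785). Gm7084 differed by 0.46 (adjusted p = 0.2977) and Uts2 by 0.88 (adjusted p = 0.3227). With this term in the fit Nr1d1 and Tef were still the called clock rows in HFWD+sugar against chow, beside 10.1% of all rows.

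Elovl3 (chromosome 19, 46206387 to 46210184, plus strand), a fatty acid elongase whose liver expression is known to be rhythmic, was called by this term. The split was chosen with earlier results of these data known, so its ranges and p-values describe these livers only. Elovl3 averaged 21.9 ± 8.92 units in the 5 livers with the highest title numbers and 107 ± 62.6 in the other 9 (SD). The ranges of 15.4 to 36.5 and 49.7 to 259 did not overlap. The log2 difference of Elovl3 was -2.06 (SE 0.30, adjusted p = 0.01063). The row on its other strand, Pitx3, which shares 10 bases with it, had -1.63 (SE 0.24, adjusted p = 0.01172) and r = 0.91 with it. The Elovl3 call was lost without chow 4, HFWD 2 or HFWD+sugar 5 (adjusted p = 0.05464, 0.07789 and 0.05274), and that of Pitx3 without HFWD 2 or HFWD+sugar 5 (adjusted p = 0.08239 and 0.1325). The summed endothelial marker rows ran from 1392 to 1598 units in the 5 livers and from 1559 to 2543 in the 9, and their part in these differences was not tested.

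**Figure D5:**
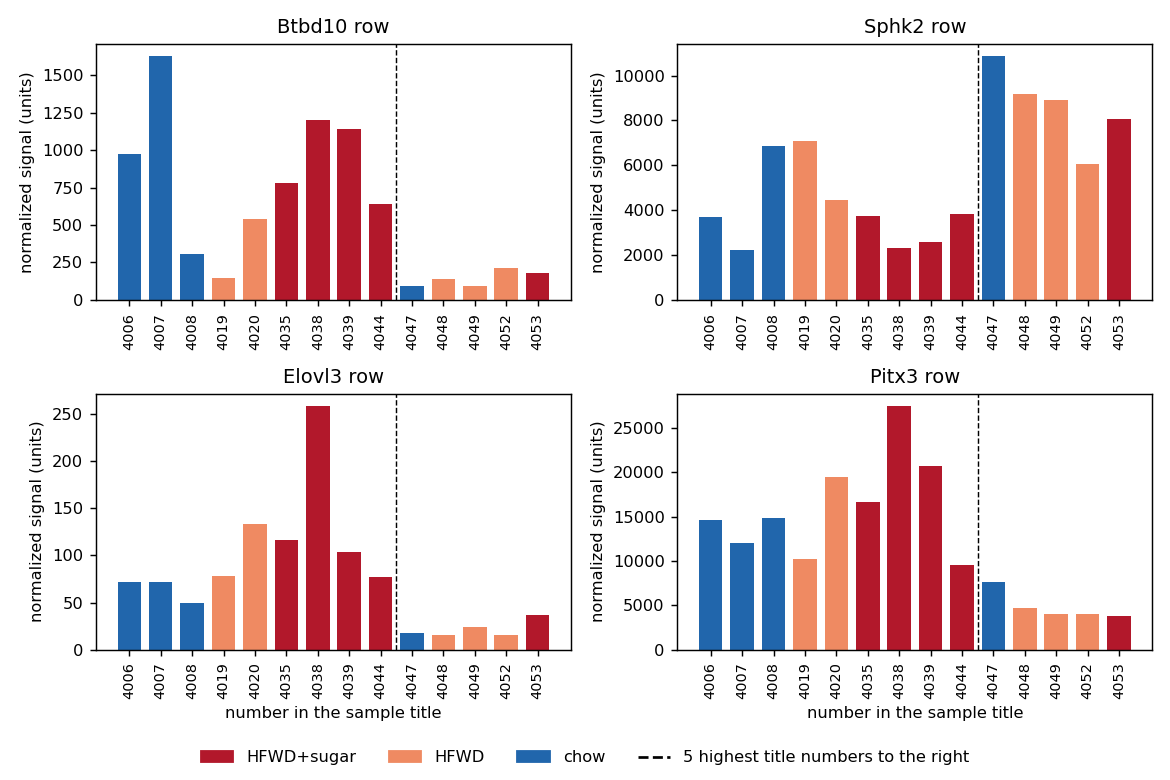
Normalized signal (units, bars from 0) of the Btbd10, Sphk2, Elovl3 and Pitx3 rows in the 14 livers in order of the number in the sample title, coloured by diet, with a dashed line before the 5 highest. To the right of the line Btbd10 stays at or under 214 units and Elovl3 at or under 36.5, while Sphk2 stays at or above 6073.

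Other genes of the clock were read from a list of 21 components beyond the members, of which 20 had a row and 19 were tested. Against chow, 1 rose and 1 fell in HFWD+sugar, beside 9.05% of all rows called, and the median log2 difference was 0.15 against 0.119 over all rows. None of the 19 (0 of 19) was called in HFWD against chow, in HFWD+sugar against HFWD or by title number. Sirt1 (chromosome 10, 62781753 to 62844452, minus strand), a deacetylase that acts on clock proteins, gave 390.0, 523, 322, 444 and 392 units in the 5 HFWD+sugar livers and 533, 1159.5, 586 and 706 in the 4 chow livers. The groups did not overlap, and the difference was -0.80 (SE 0.22, limma adjusted p = 0.03242). It was lost without chow 2 (adjusted p = 0.07585) and without HFWD+sugar 1, 3, 4 or 5 (adjusted p from 0.05926 to 0.06361). Fbxl21 (chromosome 13, 56623833 to 56639259, plus strand), of a ubiquitin ligase that acts on CRY proteins, gave 8723, 9515, 6711, 9612 and 9533 units in HFWD+sugar livers and 5559, 4959, 5254 and 9421 in chow livers. Chow 4 lay within the HFWD+sugar range, the difference was 0.52 (SE 0.16, adjusted p = 0.04825), and 12 of 14 omissions lost the call (adjusted p from 0.0007592 to 0.1429), the exceptions being chow 4 and HFWD+sugar 3. Its deviations had r = 0.83 with Lect2, 4.56 kb away on the other strand. The Fbxl21 row averaged 8121 units and the Lect2 row 161.1, and which gene's reads the Fbxl21 row carries was not tested. Bhlhe41, a repressor of E-box genes, had a log2 difference of HFWD+sugar against chow of -1.51 (SE 0.50, adjusted p = 0.06857) on values near the floor.

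A list of 24 known clock outputs of liver had 23 tested rows. In HFWD+sugar against chow 2 of 23 rose and 0 fell, beside 9.05% of all rows called. The median log2 difference was 0.40 against 0.119 over all rows. In HFWD against chow 2 of 23 rose and 0 fell, beside 3.38%, with a median of 0.37 against 0.042. In HFWD+sugar against HFWD 0 of 23 were called, beside 0%, and by title number 1 of 23, Elovl3, beside 0.0542%.

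Cyp2a5 (chromosome 7, 27620324 to 27628567, plus strand), a cytochrome P450 gene driven by DBP, rose by 1.57 (SE 0.32, adjusted p = 0.006725) in HFWD+sugar against chow and by 1.25 (SE 0.32, adjusted p = 0.04115) in HFWD against chow, and both comparisons use the same chow livers. It averaged 335 ± 114 units in HFWD+sugar livers, 264 ± 84.3 in HFWD livers and 115 ± 56.3 in chow livers (SD, n = 5, 5 and 4). The first call held in all 14 omissions of 1 library (adjusted p up to 0.02935). The second was lost in 9 of 14 (adjusted p from 0.006886 to 0.1402), namely without chow 1, 2 or 3, HFWD 1, 2 or 4, or HFWD+sugar 1, 3 or 5, and with the title number term (adjusted p = 0.08251). Near-identical Cyp2a genes can share reads, so the Cyp2a5 row is uncertain. Deviations of that row had r = 0.82 with those of Cyp2a22, its nearest opposite-strand row, 88.1 kb away. The Cyp2a5 row averaged 246.7 units and the Cyp2a22 row 60870. Cdkn1a had a log2 difference of 2.27 (SE 0.72, adjusted p = 0.05844) and Cyp7a1, the rate-limiting enzyme of bile acid synthesis, 1.93 (SE 0.60, adjusted p = 0.05162) in HFWD+sugar against chow. Elf2, on the other strand 3.59 kb from the output gene Ccrn4l, averaged 1246 ± 710.0 units in HFWD+sugar livers and 5491 ± 2588 in chow livers and fell by 2.21 (SE 0.42, adjusted p = 0.003883) on the log2 scale. No omission of 1 library ended that call (adjusted p up to 0.01943).

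Of 19 genes that respond to temperature, feeding or stress, 17 were tested. In HFWD+sugar against chow 0 of 17 were called, beside 9.05% of all rows, and in HFWD+sugar against HFWD 0 of 17, beside 0%. In HFWD against chow 0 rose and 1 fell, beside 3.38% of all rows called, with a median log2 difference of -0.16 against 0.042 over all rows. The gene was Pck1 (chromosome 2, 172978549 to 172984774, plus strand), an enzyme of gluconeogenesis that fasting induces, with 813, 913, 682, 1014 and 902 units in HFWD livers and 1486, 1335, 1282 and 1117 in chow livers, which did not overlap. Its difference was -0.60 (SE 0.14, adjusted p = 0.02298), lost without chow 1 or 3 or HFWD 1 or 3 (adjusted p from 0.0574 to 0.08545). Deviations of Pck1 had r = 0.36 with those of Ctcfl, 33.5 kb away on the other strand. The Pck1 row averaged 1041 units and the Ctcfl row 132800, and which gene's reads the Pck1 row carries was not tested. The 3 lists were chosen with earlier results of these data known, so their counts are descriptions.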

How the data were processed

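RNA from 14 mouse livers was sequenced after removal of ribosomal RNA, per the labels' protocols. The submitters' processing notes name FastQC, TopHat2 2.0, SAMtools and build mm9. How reads were counted, whether by strand, how shared reads were treated and how values were scaled is not given in the sources used here, nor whether the kit kept the strand. The authors deposited a normalized signal per gene on a linear scale; no count test was run because values were not whole reads. Groups came from the treatment labels, and replicate numbers follow series order and pair nothing. Rows that exceeded the floor (1) in 4 or more libraries were taken as log2(value + 1), which understates changes of low rows, and fitted with limma 3.58.1 in R 4.3.3 with 3 diet means and a variance trend, 2-sided, over all 14770 rows; the fit was tested on simulated data. Opposite-strand rows were searched within 200 kb. Of the rows, 22438 had the coordinates of GENCODE vM1 on mm9. Correlations used NumPy 2.4.6. Intervals cover the spread between libraries. The members and lists were chosen with earlier results of these data known. Named genes are all members, list genes that were called or had the smallest p, and the 5 rows most like and most unlike Arntl and Dbp; the values by title number and the opposite-strand relations were added after seeing the data. Alternatives changed the pseudocount, filter, scaling, weights, trend, diets and libraries fitted, and the title number term. Some rows that are counted in these lists are not reported here by name.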

Additional observations from a re-analysis of the deposited data

Results flagged for a closer look

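Of 57 sets of livers checked, that is 10 members and 9 nearest opposite-strand rows in each of 3 diets, 7 held a liver far from the others of its diet. The cut-off marks about 1 in 20 sets only where values are independent and normally spread. Linear signals, values at the floor and rows that move together depart from that, so 7 of 57 is not set against a chance rate. The Tef row of HFWD 3 stood at 3996 units, below the other 4 HFWD livers. In the rows beside members, Sphk2 stood at 8051 units in HFWD+sugar 5, above the other HFWD+sugar livers, and Btbd10 at 540.3 in HFWD 2, above the other HFWD livers. The 9330160F10Rik row was low in HFWD+sugar 1 at 1700 units, and AI597468, beside Cry1, was high in HFWD+sugar 3 at 1767. Cry1 itself was highest in HFWD+sugar 2 at 17.8 units and in chow 1 at 7.69, which is a few reads in each.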

How the results depend on the processing

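The Per1, Per3 and Cry1 rows held few reads, and no direction for them rests on these libraries. Why these rows were low was not tested. The count of called clock genes in HFWD+sugar against chow, 2, was 1 with no filter on low values and 1 after median centring, and 0 after quantile normalization, without the variance trend, with only the 2 diets fitted, and without chow 4 and HFWD 1. It ran from 0 to 3 when 1 library was left out. The rows called in that comparison numbered 2174 with array weights, 745 without the trend and 745 with only the 2 diets, and 674 to 1768 when 1 library was left out. For HFWD against chow they were 275 after median centring, 1021 with array weights, 246 without the trend and 240 with only the 2 diets, and 255 to 1051 over omissions. For HFWD+sugar against HFWD there was 1 without chow 4 and HFWD 1, and 0 to 1 over omissions. The title number term called 46 rows with array weights and 0 without the trend, and 1 to 55 over omissions. The correlation with Arntl changed sign for 7 of 9 members without the 2 livers farthest from the median, among them Nr1d2 (0.365) and Dbp (0.112), while 0 of 9 relations passed in each setting run. Median centring moved the median of all rows in HFWD+sugar against chow to -0.092, where it was 0.119 before. The cause of these shifts was not tested. No paired analysis was possible because the labels give no replicate numbers shared between diets.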

Other observations

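The row on the other strand of Gm129, which encodes the clock repressor CIART (also called CHRONO), also varied between livers. Its deviations had r = -0.56 with Btbd10 and 0.61 with Sphk2. That row, C920021L13Rik, gave 426, 143, 1078, 458 and 799 units in the 5 HFWD+sugar livers, 1112, 1205, 888, 851 and 1379 in the 5 HFWD livers and 450, 223, 1244 and 1370 in the 4 chow livers. HFWD+sugar 2 and chow 2 were its lowest livers. The difference of HFWD+sugar against HFWD was -1.17 (SE 0.49) on the log2 scale and did not pass (limma adjusted p = 0.5681). The rows most like Btbd10 over the 14 livers were Nnat (r = 0.93), Clpx (0.93) and Cd48 (0.92), and those most like Sphk2 were 0610007C21Rik (0.95), Gm10360 (0.94) and Gm7084 (0.94). Both lists were added after seeing the data and describe these libraries.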
